A study of Mus musculus with 36 samples.

Results

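The 9 mouse spleens with the highest and the 9 with the lowest expression of 7 red cell precursor genes were compared, out of 36 arrays that the labels give as individual spleens. The sets were chosen by a score, the mean over 7 probe sets (Klf1, Gata1, Epor, Alas2, Slc4a1, Sptb and Ank1) of the log2 level after centring each probe set over the 36 arrays. A log2 level here is log2(value + 16), where the value is the deposited array intensity, and a log2 difference of 1 is a 2-fold change that is understated for dim probe sets. The 18 spleens between the sets took no part in that comparison and serve below as further arrays.

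The mice were 4 months old and belonged to an F2 generation, 18 of them arthritic and 18 without arthritis. The series title describes the arthritic animals as deficient for the interleukin 1 receptor antagonist, a secreted protein that blocks the interleukin 1 receptor. The labels give no genotype, sex, strain, arthritis score, treatment or processing date for any animal, so whether the non-arthritic mice share the deficiency is not known here. The study's stated purpose was to look for subgroups of arthritic animals, and its design text gives 13 F2 mice beside the 18 and 18. Each array is treated below as 1 mouse. If arrays share animals, n is overstated and the p-values are too small. RNA came from whole spleen, and every p-value below measures only the spread between these arrays.

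In mice the spleen makes red cells throughout life, in the red pulp, and expands this output under anaemia or inflammation. Erythropoietin, acting through its receptor Epor, keeps committed precursors alive, and the transcription factors Gata1 and Klf1 switch on haem synthesis, globin and membrane skeleton genes. Precursors divide several times while they fill with haemoglobin and then lose their nucleus and organelles.

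The promoters of 4 of the genes that made the score are printed because these genes define the sets and moved together across the spleens. Each line holds the 250 bases before the RefSeq start (GRCm38.p6), 5′ to 3′ on the gene's strand. Capitals mark matches on either strand to AGATAA, a form bound by Gata factors, and to CCNCNCCC, a form bound by Klf factors. Neighbouring CCNCNCCC matches may overlap. Alas2 is at chrX:150547167-150547416 on the plus strand, Epor at chr9:21963577-21963826 on the minus strand, Gata1 at chrX:7967911-7968160 on the minus strand and Klf1 at chr8:84901732-84901981 on the plus strand.

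Alas2: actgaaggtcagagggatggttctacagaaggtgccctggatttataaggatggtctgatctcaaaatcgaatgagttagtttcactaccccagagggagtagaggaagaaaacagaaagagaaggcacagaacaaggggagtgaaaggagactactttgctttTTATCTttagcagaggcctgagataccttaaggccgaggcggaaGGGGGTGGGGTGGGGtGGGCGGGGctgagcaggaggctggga
Epor: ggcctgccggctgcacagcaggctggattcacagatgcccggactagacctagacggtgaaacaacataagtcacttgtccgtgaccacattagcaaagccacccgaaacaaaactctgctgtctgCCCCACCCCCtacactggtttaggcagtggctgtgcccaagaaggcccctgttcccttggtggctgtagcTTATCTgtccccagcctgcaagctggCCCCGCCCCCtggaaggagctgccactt
Gata1: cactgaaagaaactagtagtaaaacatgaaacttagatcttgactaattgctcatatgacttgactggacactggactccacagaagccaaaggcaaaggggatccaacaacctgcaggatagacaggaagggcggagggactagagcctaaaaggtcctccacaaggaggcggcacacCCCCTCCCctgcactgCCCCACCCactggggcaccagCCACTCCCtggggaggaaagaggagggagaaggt
Klf1: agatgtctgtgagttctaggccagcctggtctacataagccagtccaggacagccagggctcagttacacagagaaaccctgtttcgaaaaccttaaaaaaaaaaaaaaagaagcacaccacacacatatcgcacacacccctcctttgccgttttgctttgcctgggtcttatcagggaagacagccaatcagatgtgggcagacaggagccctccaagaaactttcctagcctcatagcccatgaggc

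Alas2 and Epor each hold 1 AGATAA match, which starts 86 and 54 bases before the gene start, and 4 CCNCNCCC matches. Gata1 holds 3 CCNCNCCC matches and no AGATAA match, and Klf1 holds neither of these exact forms. Other forms that Gata or Klf factors bind, such as TGATAA, were not searched for and are not marked. Of the 7 genes 5 matched a RefSeq promoter entry, and Slc4a1 and Ank1 did not. Among 10030 genes with a promoter, 6.06% held AGATAA and 63.8% held CCNCNCCC, so the second letters are common in windows of this length. The letters TTTNGCGC, bound by E2F factors, were in 2.1%. Of the 62 tested genes of 5 red cell gene lists described below that have a promoter, 9 (14.5%) held AGATAA and 46 (74.2%) held CCNCNCCC. Of the 47 genes of the DNA replication and mitosis lists with a promoter, 6 (12.8%) held TTTNGCGC. These shares are descriptions, and no difference between them was tested.

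The score ran from 0.63 in non-arthritic 12 to -1.47 in arthritic 18. Its mean was 0.47 ± 0.11 (SD, n = 9) in the high set, 0.09 ± 0.15 (SD, n = 18) in the middle spleens and -0.66 ± 0.32 (SD, n = 9) in the low set. At the upper boundary non-arthritic 15, the last spleen of the high set, scored 0.30 and arthritic 3, just outside it, 0.29. At the lower boundary arthritic 1, the first spleen of the low set, scored -0.36 and arthritic 2, just outside, -0.28. The high set therefore grades into the middle spleens, while the low set spreads out below them. Arthritic 18 lies apart from the next lowest spleen, arthritic 10 at -0.71.

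**Figure D1:**
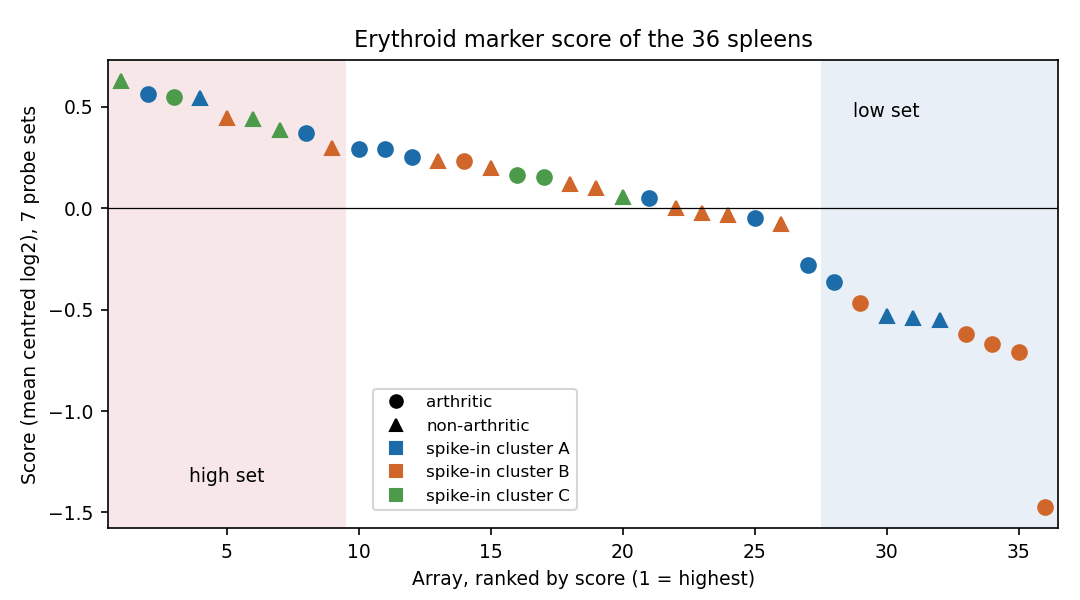
Score of each spleen (y axis, mean centred log2 level of 7 probe sets) against its rank among 36 (x axis). Circles are arthritic and triangles non-arthritic mice, colours are the 3 spike-in clusters, and shading marks the high and low sets. Arthritic 18 stands alone at -1.47, and no spleen of cluster C, in green, is in the low set.

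Arthritic mice gave 3 of the 9 high and 6 of the 9 low spleens, a difference that did not pass Fisher's exact test (two-sided p = 0.347). The mean score of the arthritic mice was -0.09 ± 0.54 (SD, n = 18), and that of the others was 0.09 ± 0.36 (SD, n = 18). Some arrays stand apart in ways the labels do not explain. The hybridisation controls, bacterial and phage transcripts added to every array, fell into 3 clusters of 13, 16 and 7 arrays, called A, B and C here. The high set held 3, 2 and 4 arrays of A, B and C and the low set 4, 5 and 0 (exact permutation test over the arrays, two-sided p = 0.145). Of the 6 arthritic low spleens 5 were in cluster B, and all 3 non-arthritic low spleens were in cluster A. The 3′ to 5′ signal ratio of Gapdh, a measure of RNA integrity, averaged 0.919 ± 0.106 (SD, n = 9) in the high and 0.896 ± 0.155 (SD, n = 9) in the low set (exact permutation p = 0.714). The upper quartile of the intensities was lower in the high set, 554.7 ± 10.7 (SD, n = 9) against 574.9 ± 12.7 (SD, n = 9; exact permutation p = 0.0023, adjusted over 4 array measures 0.00921). Pancreas transcripts were abundant in 3 arrays, non-arthritic 6 and arthritic 8 of the high set and non-arthritic 5 of the low set, at mean log2 levels of 12.1, 13.1 and 13.7 against 7.97 in the next array.

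The 7 genes that chose the sets are given as levels with no test. Klf1, the factor that switches on adult globin and many other red cell genes, had log2 levels of 13.08, 13.42 and 13.60 (lowest, median and highest) in the high set and 10.85, 12.16 and 12.56 in the low set. Gata1, the master regulator of the red cell lineage, had 11.53, 11.84 and 12.42 against 10.19, 10.87 and 11.30. Epor, the receptor for erythropoietin, had 10.61, 10.98 and 11.66 against 9.06, 9.99 and 10.39. The sets did not overlap for any of the 7 genes, as the choice of spleens favours. Alas2, the erythroid enzyme of the first step of haem synthesis, had 14.03, 14.45 and 14.85 against 12.52, 13.40 and 13.81. Slc4a1, the band 3 anion exchanger, had 14.23, 14.39 and 14.60 against 13.09, 13.66 and 13.99. Ank1, the ankyrin that ties band 3 to the membrane skeleton, had 12.08, 12.30 and 12.70 against 10.09, 10.93 and 11.18. Sptb, the beta chain of spectrin, had 10.66, 11.05 and 11.43 against 9.18, 10.08 and 10.50.

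Ank1 showed the widest gap between the set means among the 7, a difference of 1.50 or 2.84-fold, and Slc4a1 the narrowest, 0.79 or 1.73-fold. Klf1 differed by 1.32, Gata1 by 1.15, Epor by 1.12, Sptb by 1.01 and Alas2 by 1.00 on the log2 scale. Without arthritic 18 the differences lay between 0.73 (Slc4a1) and 1.41 (Ank1). Within cluster A they lay between 0.66 (Alas2) and 1.37 (Epor), and within cluster B between 0.72 (Slc4a1) and 1.58 (Ank1).

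Across the genes that did not make the score, the comparison asks what else differs between spleens of high and of low red cell production. Limma tested 27009 probe sets and called 3827 of them at an adjusted p below 0.05, 1918 higher and 1909 lower in the high set. With 1 probe set for each gene, 12420 genes were tested, of which 1215 (9.78%) were called higher and 956 (7.7%) lower in the high set. More than 2-fold differences were found for 123 of the former and 19 of the latter. The median difference over all genes was -0.05, and it was -0.01 after quantile normalization. In bulk tissue, fewer cells of a type and less RNA per cell cannot be told apart. Arthritic 18 weighed on these counts, since 2858 probe sets were called without it, 2842 of them among the 3827.

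The 18 middle spleens gave a check on arrays that the comparison did not use. In these, each gene's slope on the score was fitted, in log2 units per unit of score, over a score range of -0.28 to 0.29. The score is the one that chose the sets, so red cell genes are likely to follow it here as well. Limma called 0 of 12420 genes (0%), with a lowest adjusted p of 0.0645 over the probe sets, and 1693 probe sets had an unadjusted p under 0.05. Among genes, 541 (4.36%) had a positive and 394 (3.17%) a negative slope with an unadjusted p under 0.05. With the spike-in cluster as a block, 154 probe sets were called, 128 of them positive. Of the 1215 genes called higher in the high set, 1164 (95.8%) had a positive slope in the middle spleens, against 43.4% of all genes. Of the 956 called lower, 859 (89.8%) had a negative slope, against 56.6% of all genes. Single slopes over so narrow a range have wide errors.

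Red cell genes come first, as a description, because spleens selected on 7 genes of this programme will differ in the rest of it. The counts called higher, gaps between the sets and slopes on the score in these lists are therefore no independent support. Over all genes 9.78% were called higher and 7.7% lower. Of 19 tested genes of haem synthesis and iron uptake, 16 were called higher and 0 lower, with a median difference of 0.84 against -0.05 over all genes. Fech, which puts iron into the ring to complete haem, was higher by 1.05 (SE 0.13), and Uros and Urod, enzymes in the middle of that pathway, by 1.07 (SE 0.11) and 0.93 (SE 0.10). The mitochondrial genes Slc25a38, a glycine carrier, and Glrx5, which serves iron-sulphur cluster assembly, were higher by 0.76 and 0.87. Tfrc, the transferrin receptor that brings iron into the cell, was higher by 0.74. Cpox had a difference of 0.28, Ireb2 of -0.16 and Flvcr1, a haem exporter, of -0.31, and none of these 3 was called. Among the middle spleens 18 of the 19 slopes on this score of the same programme were positive.

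Of 21 tested membrane and skeleton genes, 18 were called higher and 1 lower, with a median of 0.91. Rhd, a carrier of Rhesus blood group antigens, had log2 levels of 13, 13.21 and 13.46 in the high set and 10.75, 12.03 and 12.22 in the low set. The sets did not overlap, and they differed by 1.36 (SE 0.15), or 2.56-fold. Icam4, an adhesion molecule of red cell precursors, was higher by 1.40 (SE 0.16), Cldn13, a claudin of mouse red cell precursors, by 1.27 (SE 0.14) and Dmtn, the actin-bundling dematin, by 1.13 (SE 0.12). These 3 also had no overlap between the sets. Slc2a1, the glucose transporter, went the other way and was lower by 0.55 in the high set (difference -0.55, SE 0.16, limma adjusted p = 0.027). That call was lost without arthritic 18 (adjusted p = 0.0575), with arthritis as a covariate (0.0624), without the arrays with pancreas transcripts and by the exact Wilcoxon test. The slope of Rhd in the middle spleens was 1.32 (SE 0.20).

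Of 23 transcription regulators, 14 were called higher and 0 lower, with a median of 0.68. Nfe2, a regulator of globin genes, was higher by 1.25 (SE 0.16), Tal1, a partner of Gata1, by 0.99 (SE 0.12), and E2f2, a cell cycle factor of maturing precursors, by 1.02 (SE 0.09). Mxi1, an antagonist of Myc, was higher by 0.78 (SE 0.08). Regulators that many other blood cells share had small differences that were not called: Runx1 at 0.13, Lyl1 at 0.05, Ldb1 at 0.03, Ikzf1 at -0.07 and Bcl11a at -0.09. The contrast among members was thus wide, from -0.20 (Zbtb7a) to 1.25.

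Late maturation genes, which help clear proteins and organelles, had 13 of 14 members called higher, with a median of 0.78. Trim10, a protein of terminal red cell differentiation, had log2 levels of 12.79, 12.93 and 13.28 in the high set and 10.73, 11.73 and 12.15 in the low set. It was higher by 1.22 (SE 0.15), with no overlap. Ube2o, a ubiquitin enzyme that clears ribosomes from reticulocytes, was higher by 1.14 (SE 0.11), Gclm, a subunit of the glutathione-making enzyme, by 1.03 (SE 0.12) and Fbxo7 by 0.78 (SE 0.08). Hbb-b2, a beta globin, was the 1 globin gene past the filter on low values and was higher by 0.72 (SE 0.13). Other globin genes were not analysed here.

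Genes of erythropoietin signalling and of the stress response of red cell precursors form a list apart. Of 21 tested, 1 was called higher and 1 lower, beside 9.78% and 7.7% of all genes, with a median difference of -0.08. The gene called higher was Bcl2l1, the survival factor induced by erythropoietin in late precursors, with log2 levels of 10.89, 11.33 and 11.71 against 10.33, 10.81 and 11.01. It differed by 0.69 (SE 0.13, limma adjusted p = 8.2e-04), and the sets overlapped slightly. The gene called lower was Epas1, a hypoxia-sensing factor, with a difference of -0.30 (limma adjusted p = 0.032, and 0.053 without arthritic 18). Socs3, a brake on cytokine receptors, stood at -0.57, Bmp4, a signal of stress erythropoiesis, at -0.47, Kit, the stem cell factor receptor, at -0.18 and Cish at 0.06, and none was called. Of 12 haematopoietic progenitor genes, 1 was called, Mecom, a factor of blood stem cells, at -1.38 (SE 0.38). That call was lost by the exact Wilcoxon test. Mecom was dim in the high set, with a median log2 level of 5.50. Cd34, Flt3 and Gata2 had differences of -0.24, -0.14 and 0.07 that were not called.

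Proliferation genes were called higher with few exceptions. Of 27 tested DNA replication genes 25 were called higher and 0 lower, with a median difference of 0.73, beside the 9.78% of all genes called higher. Lig1, the ligase that joins Okazaki fragments, had log2 levels of 11.79, 12.16 and 12.31 in the high set and 10.30, 11.10 and 11.33 in the low set. The sets did not overlap, and they differed by 1.11 (SE 0.11, limma adjusted p = 4.5e-06). Tk1, the thymidine kinase of S phase, was higher by 1.07 (SE 0.13), Mcm10, which starts replication forks, by 0.89 (SE 0.11) and Prim1, a primase subunit, by 0.73 (SE 0.08). For Mcm10, 1 of 3 probe sets pointed down. Gins2 at 0.50 and Ung at 0.26 were the 2 members not called.

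All 27 tested mitosis genes were called higher, beside 9.78% of all genes. Their median was 0.88, with a range from 0.52 (Kif23) to 1.12. Ube2c, which helps destroy cyclins at the end of mitosis, had log2 levels of 13.09, 13.39 and 13.69 in the high set and 11.52, 12.32 and 12.46 in the low set. It was higher by 1.12 (SE 0.11, limma adjusted p = 4.5e-06) with no overlap. Prc1, which bundles microtubules of the spindle midzone, was higher by 1.07 (SE 0.13), the kinetochore motor Cenpe by 1.05 (SE 0.12) and the cyclin Ccna2 by 1.01 (SE 0.13). The list count stayed at 27 under each of the 8 other settings run on the lists. In the middle spleens 27 of 27 mitosis genes and 26 of 27 replication genes had positive slopes, and 20 and 22 of them had an unadjusted p under 0.05, beside 4.36% of all genes. Of these lists, the spike-in block called 9 mitosis and 7 replication genes in the middle spleens. Which cells were dividing was not tested.

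**Figure D2:**
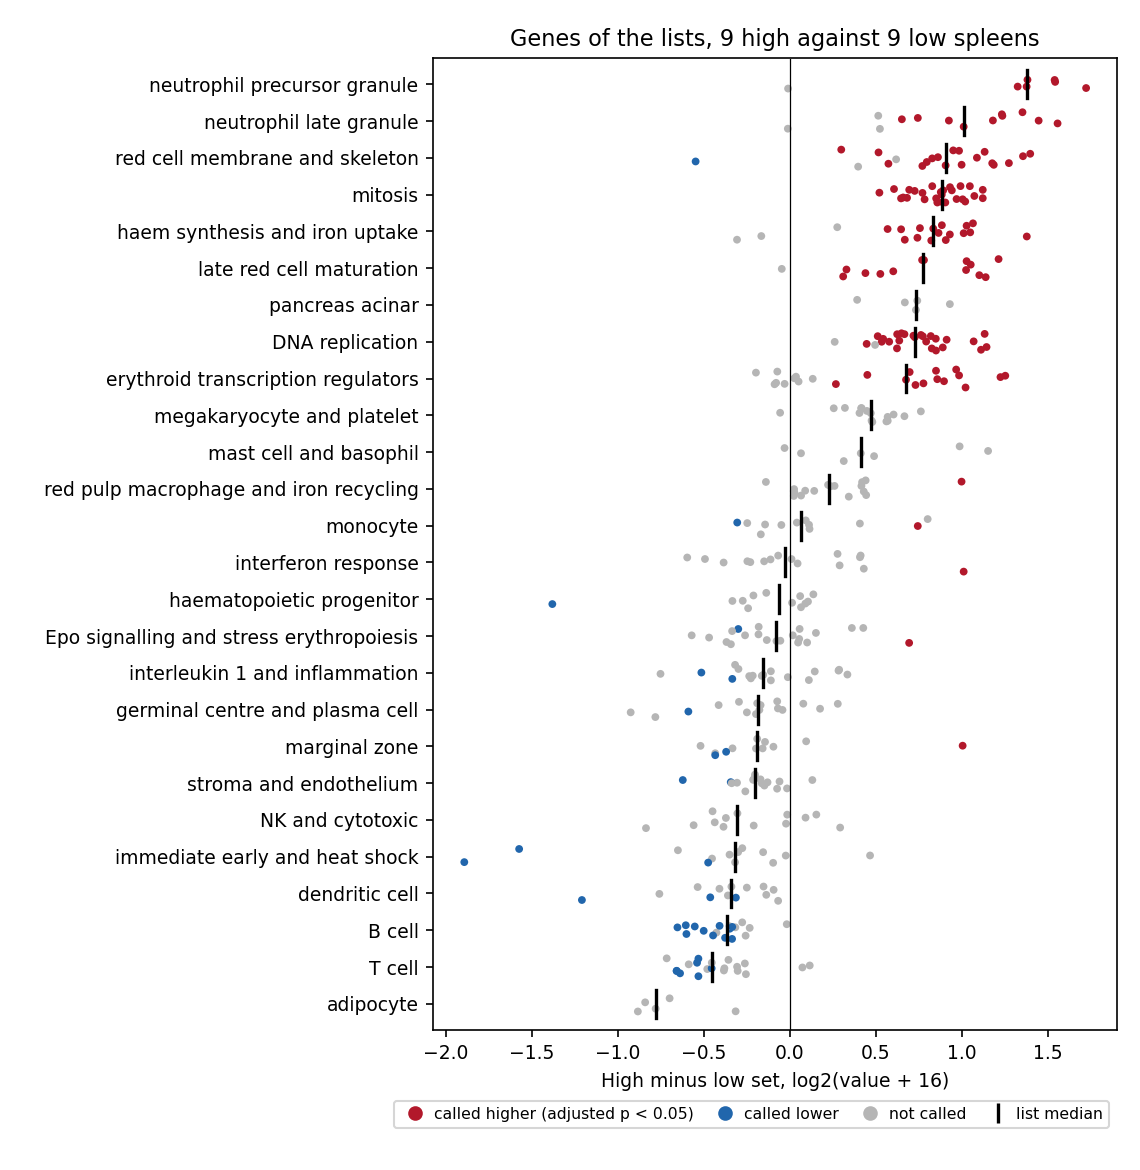
Difference between the 9 high and 9 low spleens (x axis, log2) for each tested gene (points) of the lists with at least 5 tested genes (y axis), sorted by list median (black bars). Red and blue points were called higher and lower by limma, and grey points were not called. Neutrophil, red cell and proliferation lists lie to the right, at medians from 0.68 to 1.38, and B and T cell lists to the left, at -0.36 and -0.45. The pancreas list, at 0.73 with no gene called, lies within the range on the right. The adipocyte list, at -0.78 with no gene called, lies furthest to the left.

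Neutrophil genes had the highest list medians. Of 7 tested genes of neutrophil precursors, whose primary granules are filled in dividing promyelocytes, 6 were called higher, beside 9.78% of all genes. Their median was 1.38. Ctsg, the granule protease cathepsin G, had log2 levels of 10.12, 11.15 and 12.65 in the high set and 8.25, 9.59 and 10.86 in the low set. It was higher by 1.72 (SE 0.37, limma adjusted p = 0.0032), or 3.3-fold, although the sets overlapped. Elane, neutrophil elastase, had 10.89, 11.94 and 13 against 9.37, 10.55 and 11.80 and was higher by 1.54 (SE 0.31, limma adjusted p = 0.002). Mpo, the myeloperoxidase of primary granules, had 12.20, 12.72 and 14.21 against 10.43, 11.69 and 13.08 and was higher by 1.54 (SE 0.33, limma adjusted p = 0.0033). Each of these genes varied several-fold within a set as well. Ms4a3, a membrane protein of granulocyte precursors, was higher by 1.38 (SE 0.30), and Gfi1, a repressor needed for granulocyte formation, had a difference of -0.01 that was not called.

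The count of 6 held in each of the 8 other settings run on the lists. All 7 genes had positive slopes in the middle spleens, 5 of them with an unadjusted p under 0.05. Their median slope was 2.36, against 1.12 for the mitosis list. With the spike-in block limma called 0 of the 7 slopes, against 9 in the mitosis list. Elane had a slope of 2.51 (SE 0.99) and Ctsg of 2.57 (SE 1.10). The difference in Ctsg was 1.72 within cluster A and 1.94 within cluster B. Among arthritic mice it was 1.26, among the others 2.53, and limma did not call the gap between these values (adjusted p = 0.293).

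Genes of later neutrophil stages had 10 of 13 members called higher, beside 9.78% of all genes, with a median of 1.01. Ltf, the lactoferrin of secondary granules, had log2 levels of 12.26, 12.92 and 14.18 against 10.53, 11.65 and 13.52 and was higher by 1.56 (SE 0.36, limma adjusted p = 0.0052). Cd177, a surface protein of neutrophils, was higher by 1.45 (SE 0.37), Ngp, a secondary granule protein, by 1.01 (SE 0.26) and Mmp9, a gelatinase, by 0.93 (SE 0.23). The sets overlapped for all 4. S100a8 at 0.52, Cxcr2 at 0.53 and Il1b at -0.01 were not called. This count moved with the settings: 3 genes were called with the spike-in cluster as a block, 7 without arthritic 18, 6 without the arrays with pancreas transcripts and 4 by the exact Wilcoxon test. Of their 13 slopes in the middle spleens 12 were positive and 0 had an unadjusted p under 0.05.

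**Figure D3:**
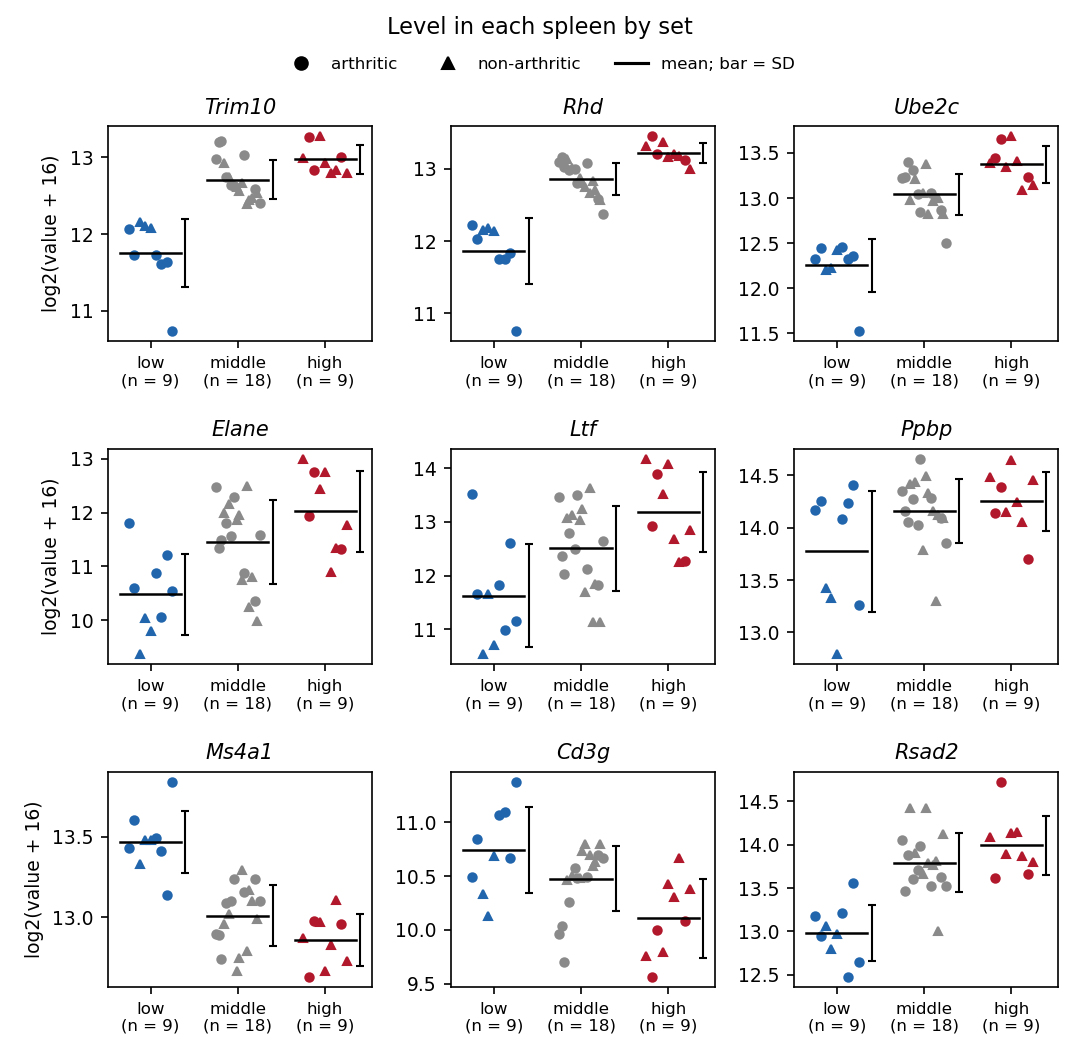
Log2 level (y axis) of 9 genes in each spleen of the low, middle and high sets, with circles for arthritic and triangles for non-arthritic mice. Lines are means and bars SDs (n = 9, 18 and 9). Trim10, Rhd, Ube2c, Ms4a1 and Rsad2 do not overlap between the high and low sets, while Elane, Ltf, Ppbp and Cd3g do.

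Megakaryocytes share a precursor with red cells. Of 16 megakaryocyte and platelet genes, 0 were called in either direction by limma, beside 9.78% of all genes called higher and 7.7% lower. Of their differences 15 were positive, and the median was 0.47. Ppbp, a platelet chemokine, had log2 levels of 13.70, 14.25 and 14.65 in the high set and 12.79, 14.08 and 14.41 in the low set, a difference of 0.48 (SE 0.19, adjusted p = 0.102). The 3 non-arthritic low spleens lay at or below 13.42 and 5 of the 6 arthritic ones within the range of the high set. Thbs1, the platelet thrombospondin, had a difference of 0.76 (SE 0.30, adjusted p = 0.0909), and Selp, the adhesion receptor P-selectin, one of 0.57 (SE 0.22, adjusted p = 0.0929, and 0.0419 with the spike-in block). In the middle spleens 15 of the 16 slopes were positive, with a median of 1.35, and 10 had an unadjusted p under 0.05. With the spike-in block limma called 0 of these slopes. Among 7 mast cell and basophil genes 0 were called, with a median of 0.41. Of these, Hdc had a second probe set that was called, at 1.55.

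Red pulp macrophages take up old red cells and recycle their iron. Of 18 genes 1 was called higher, beside 9.78% of all genes: Hp, the haemoglobin-binding haptoglobin, at 1.00 (SE 0.29, limma adjusted p = 0.0256). That call was lost with the spike-in block (adjusted p = 0.0826), without the arrays with pancreas transcripts and by the exact Wilcoxon test. Hp was highest in non-arthritic 12 and lowest in non-arthritic 5, at log2 levels of 12.11 and 8.92. In these spleens the neutrophil gene Ltf had 14.18 and 10.71, and C1qb, of the macrophage list, 12.10 and 12.68. Which cells gave the Hp signal was not tested. Of the 18 differences 17 were positive, with a median of 0.23. Spic, the factor that defines these macrophages, had a difference of 0.24, Slc40a1, the iron exporter, one of 0.22 and Hmox1, which breaks down haem, one of 0.43, and none was called. Cd5l, a secreted protein of tissue macrophages in the marginal zone list, was higher by 1.01 (SE 0.28, limma adjusted p = 0.0208). Its log2 levels were 10.39, 11.84 and 12.55 in the high set and 9.19, 10.76 and 11.62 in the low set, with wide overlap. Of 12 monocyte genes 1 was called higher and 1 lower, beside 9.78% and 7.7% of all genes. These were F13a1, a clotting factor subunit, at 0.75 and Ms4a4c at -0.30. Both calls were lost without arthritic 18 (limma adjusted p = 0.0845 and 0.0748).

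Of 18 B cell genes 11 were called lower and 0 higher, beside 7.7% of all genes, and all 18 differences were negative with a median of -0.36. Ms4a1, the surface protein CD20, had log2 levels of 12.63, 12.87 and 13.11 in the high set and 13.14, 13.48 and 13.84 in the low set. The sets did not overlap, and they differed by -0.60 (SE 0.09, limma adjusted p = 8.1e-05), a ratio of 0.658. Cd79b, a signalling chain of the B cell receptor, also had no overlap, with 12.49, 13.01 and 13.19 against 13.28, 13.45 and 13.69, a difference of -0.50 (SE 0.09, limma adjusted p = 0.001). Fcrl1, a receptor of mature B cells, differed by -0.65 (SE 0.09), and Cr2, a complement receptor, by -0.55 (SE 0.11). Ighm, the heavy chain of IgM, had a difference of -0.02 that was not called. Between 9 and 13 B cell genes were called lower under the other settings run. All 18 slopes in the middle spleens were negative, 4 of them with an unadjusted p under 0.05, beside 3.17% of all genes. With the spike-in block limma called 0 of these slopes.

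Of 20 T cell genes 7 were called lower and 0 higher, beside 7.7% of all genes called lower, with a median of -0.45. Cd3g, a chain of the T cell receptor complex, had log2 levels of 9.56, 10.08 and 10.67 in the high set and 10.13, 10.69 and 11.38 in the low set. The sets overlapped, and they differed by -0.64 (SE 0.17, limma adjusted p = 0.0129). Cd6, a coreceptor, and Ctla4, an inhibitory receptor, differed by -0.66 each (SE 0.18 and 0.19) and Themis, a signalling protein, by -0.53 (SE 0.14), while Cd3e at 0.07 was not called. The call on Cd6 was lost with the spike-in block (adjusted p = 0.172) and that on Ctla4 after quantile normalization (0.0763) and with arthritis as a covariate (0.0707). The count fell to 4 after quantile normalization, without arthritic 18 or with arthritis as a covariate, and to 2 without the arrays with pancreas transcripts. In the middle spleens 19 of 20 slopes were negative, 8 of them with an unadjusted p under 0.05. With the spike-in block limma called 2 of the slopes there. Cd3g had a slope of -1.42 (SE 0.35) there.

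The remaining lists of the white pulp and the framework are read beside the 7.7% of all genes called lower. Of 13 dendritic cell genes 3 were called lower (Ly6d at -1.21, Tcf4 at -0.46 and Cd86 at -0.31). All 13 differences were negative with a median of -0.34, although in the middle spleens 6 of the slopes were positive. Itgax, at -0.25, was not called. Which cells gave the signals of this list was not tested. The call on Cd86 was lost without arthritic 18 (adjusted p = 0.0532), with the spike-in block (0.104) and with arthritis as a covariate (0.0972). Of 16 germinal centre and plasma cell genes 1 was called lower, Bcl6, the germinal centre repressor, at -0.59 (SE 0.15). Its other probe set, at -0.32, was not called. Among arthritic mice the Bcl6 difference was -1.12, among the others -0.15. Limma called the gap between these values (adjusted p = 0.0261), but not with the spike-in block (0.74). Of 12 marginal zone genes 2 were called lower, Notch2, the receptor that directs marginal zone B cells, at -0.43 (SE 0.10) and Cd1d1, a lipid-presenting molecule, at -0.37 (SE 0.10). Of 17 stroma and endothelium genes 2 were called lower, Cxcl13, the chemokine that draws B cells into follicles, at -0.62 (SE 0.11) and the filament protein Vim at -0.34 (SE 0.08). The call on Vim was lost with the spike-in block (adjusted p = 0.0531). Among 13 natural killer and cytotoxic genes 0 were called, with a median of -0.30. Neither were any of 5 pancreas genes (median 0.73) or 5 adipocyte genes (median -0.78), both of which varied widely within the sets. The adipocyte gene Fabp4 had a second probe set that was called, at -1.04.

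Of 18 interleukin 1 and inflammation genes 0 were called higher and 2 lower, beside 9.78% and 7.7% of all genes: Casp1, the protease that matures interleukin 1 beta, at -0.51 (SE 0.09, limma adjusted p = 7e-04) and Irak3, an inhibitor of interleukin 1 receptor signalling, at -0.33 (SE 0.11, limma adjusted p = 0.0368). The call on Irak3 was lost after quantile normalization (adjusted p = 0.148), with the spike-in block (0.152), without arthritic 18 (0.0668) and with arthritis as a covariate (0.0714), and its other probe set pointed up. Casp1 had log2 levels of 9.25, 9.62 and 9.78 in the high set and 9.83, 10.02 and 10.38 in the low set, with no overlap. Il1rn, which encodes the antagonist, had a difference of 0.15, Il1a of -0.21 and Tnf of -0.75, and none was called.

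Of 16 interferon response genes 1 was called higher and 0 lower, beside 9.78% and 7.7% of all genes. The gene called was Rsad2, the antiviral protein viperin. It had log2 levels of 13.62, 13.89 and 14.73 in the high set and 12.47, 12.97 and 13.56 in the low set. The sets did not overlap, and Rsad2 was higher by 1.01 (SE 0.14, limma adjusted p = 7.6e-05), or 2.02-fold. The other 15 genes had differences between -0.60 (Cxcl9) and 0.43 (Ifit1), and Mx1 and Stat2 stood at -0.23 and -0.38. The difference in Rsad2 was 0.72 within cluster A and 1.00 within cluster B, and among arthritic mice 1.00, among the others 1.05. In the middle spleens its slope was 0.67 (SE 0.50).

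**Figure D4:**
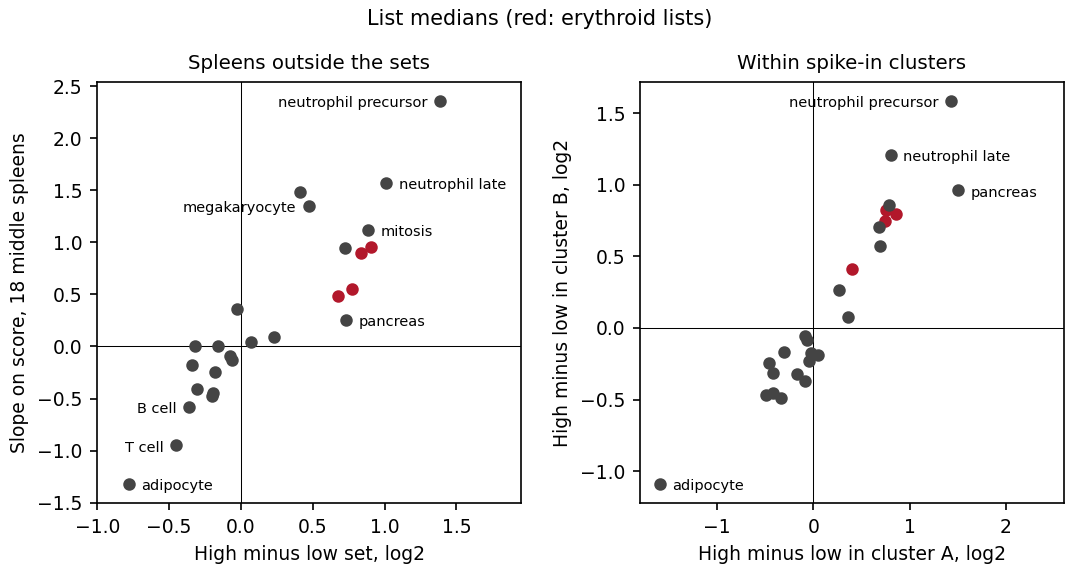
Each point is the median of a list with at least 5 tested genes, with the red cell lists in red. On the left the difference between the sets (x axis, log2) stands against the slope on the score in the 18 middle spleens (y axis, log2 per unit of score), and on the right the difference within spike-in cluster A (x axis, 3 high and 4 low spleens) against that within cluster B (y axis, 2 high and 5 low). The neutrophil precursor list is highest on both y axes, at a slope of 2.36 and a cluster B difference of 1.59.

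Beyond the lists, the largest difference among the genes called belonged to 6030468B19Rik, a gene named here by its clone alone. It had log2 levels of 6.71, 8.37 and 8.83 in the high set and 5.17, 5.69 and 6.70 in the low set, a difference of 2.24 (SE 0.29, limma adjusted p = 3.1e-05) with no overlap. This gene was dim in the low set, with a median below the 6.49 that the filter asked of the mean over all arrays. With log2(value + 64) the difference was 1.59. Dusp8, a phosphatase of MAP kinases, was higher by 1.68 (SE 0.24) on 1 probe set, while its other one had a difference of 0.03 that was not called. Tac2, which encodes the peptide neurokinin B, was higher by 1.39 (SE 0.22), Rfx2, a transcription factor, by 1.39 (SE 0.22) and Slc38a5, a glutamine transporter, by 1.31 (SE 0.14). Mpp2, a scaffold protein of the membrane, was higher by 1.39 (SE 0.33) and Phyhip by 1.36 (SE 0.35). 5430401H09Rik, at 1.41 (SE 0.11), had the lowest adjusted p of all, 1.1e-06. All 8 genes had positive slopes in the middle spleens, and 4 of them had an unadjusted p under 0.05 (6030468B19Rik, 5430401H09Rik, Rfx2 and Slc38a5).

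On the lower side the largest differences belonged to the heat shock genes Hspa1b and Hspa1a, inducible chaperones that rise within minutes of stress. Hspa1b had log2 levels of 8.31, 9.84 and 11.37 in the high set and 9.28, 12.10 and 13.34 in the low set, a difference of -1.89 (SE 0.52, limma adjusted p = 0.018). Hspa1a differed by -1.57 (SE 0.52, limma adjusted p = 0.0457). The calls were lost with the spike-in block (adjusted p = 0.208 for Hspa1b and 0.197 for Hspa1a), that on Hspa1a also without arthritic 18 (0.0955) and after quantile normalization (0.0532), and in the middle spleens the slopes were positive, 1.66 (SE 1.75) and 1.03 (SE 1.34). Clec2d, a ligand of a natural killer receptor, differed by -1.26 (SE 0.25), Mmp12, the macrophage elastase, by -1.27 (SE 0.28), Esm1, a proteoglycan of endothelium, by -1.15 (SE 0.22) and Ggt5, which cleaves glutathione conjugates, by -1.11 (SE 0.26). For Ggt5, 1 of 3 probe sets pointed up, and its slope in the middle spleens was -2.87 (SE 0.95).

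Whether the difference between high and low spleens depended on arthritis was tested by the interaction term over 3 and 6 high and 6 and 3 low arthritic and non-arthritic spleens. Limma called 540 genes (4.35%), and with the spike-in cluster as a block it called 0 probe sets, with 1815 at an unadjusted p under 0.05. Since 5 of 6 arthritic low spleens were in cluster B and all 3 non-arthritic ones in cluster A, arthritis and spike-in cluster largely cannot be told apart here. Npnt, the matrix protein nephronectin, was higher by 1.13 in arthritic high spleens and lower in non-arthritic ones, at -1.42, an interaction of 2.56 (adjusted p = 0.0136, and 0.602 with the block). Of 18 red pulp macrophage genes 9 were called, among them Spic (0.98 among arthritic, -0.68 among non-arthritic mice) and Hmox1 (1.31 and -0.63). The list's median difference was 0.67 among arthritic and -0.42 among non-arthritic mice. Of 16 megakaryocyte genes 2 were called, Ppbp (0.01 and 1.16) and Gp1bb (-0.16 and 1.85), and the list medians were -0.05 and 1.26. With the block 0 genes of these 2 lists were called. For the red cell and mitosis lists the medians in arthritic and then non-arthritic mice were 0.81 and 0.69 for haem synthesis, 0.98 and 0.71 for the membrane list and 0.91 and 0.77 for mitosis.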

How the data were processed

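Per the labels, spleen total RNA was isolated by Trizol and biotin-labelled for Affymetrix arrays. The authors deposited linear intensity values, which the submitters' processing notes credit to MAS5 (of a version that these sources do not give). The arrays share a trimmed mean of 500.0 after 2% of probe sets are taken off each end, so each array was scaled by 1 factor, so a rise in abundant transcripts can lower all others. Median intensities ran from 110.6 to 183.2 and precision is limited by the number of arrays. The highest Pearson correlation between 2 arrays was 0.966, and no arrays were merged.

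Values were used as log2(value + 16). Left out were the 64 control probe sets, those with a mean under the 40th percentile (log2 6.49; 27022 of 45037 stayed) and 13 of the marker genes. The platform annotation names 1 gene for 34945 probe sets, several for 932 and none for 9160; 34741 matched the RefSeq table (GRCm38.p6), which also gave the promoters. A gene is represented by its probe set of highest mean. Limma 3.58.1 in R 4.3.3 (lmFit, eBayes with trend, two-sided, Benjamini-Hochberg over all probe sets, threshold 0.05) was tested on simulated data. Exact permutation and Fisher tests used scipy 1.17.1, with numpy 2.4.6, pandas 2.3.3, matplotlib 3.10.9 and Python 3.11.15. Groups and replicate numbers come from the sample titles.

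Named genes are the 7 of the score, the 12 largest called differences in each direction, the 8 largest in each direction outside the lists, up to 4 genes of each list with the smallest unadjusted p, and the 5 smallest interaction p; others given as list examples were picked after their values were seen. The spleens and the 27 lists were chosen with earlier results of these data known. Centring the spike-in controls per array before Ward clustering, the settings for lists, and the runs without arthritic 18 for single genes or without cluster C were chosen after seeing the data. Alternatives were other pseudocounts, filters, normalization, covariates, blocks, tests and left-out arrays.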

Additional observations from a re-analysis of the deposited data

Results flagged for a closer look

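In 25 of 278 checked sets of 9 spleens (8.99%), 1 spleen lay far from the other 8. Chance gives about 1 in 20 for unselected and independent sets. These sets reuse the same spleens and include the score and its genes, so the flags are not separate events and the shares cannot be compared. Of the 25 flags, 12 belonged to arthritic 18 in the low set, whose score of -1.47 lay below the range of -0.71 to -0.36 of the others. Its log2 levels stood apart for Klf1 at 10.85, Epor at 9.06, Alas2 at 12.52, Cldn13 at 10.44, Icam4 at 8.65, Rhd at 10.75, Trim10 at 10.73, Lig1 at 10.30, Ube2c at 11.52, Slc38a5 at 9.27 and Tac2 at 6.42, all of them the lowest. The pancreas genes set non-arthritic 5 apart in the low set, with Cel at 13.36, Cela1 at 14.50, Prss2 at 13.79 and Zg16 at 13.63. Arthritic 13 stood apart in the high set with Rsad2 at 14.73 against 13.62 to 14.15 in the others, Fas at 5.75 against 7.18 to 8.30 and Mmp12 at 4.77 against 6.34 to 7.47.

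Single departures were AU023762 at 4.66 in arthritic 4 and Lig1 at 11.79 in non-arthritic 15, both in the high set, and in the low set an actin 3′ to 5′ ratio of 2.74 in arthritic 14, 5430401H09Rik at 10.04 in non-arthritic 1, Ctla4 at 7.22 in non-arthritic 2 and Gzmk at 5.14 in arthritic 15. The difference between high and low spleens itself differed between arthritic and non-arthritic mice, by limma's interaction term, for Npnt by 2.56, Plpp3 by 1.40, Crispld2 by -2.06, R3hdm2 by -1.12 and Ndufa2 by -1.15, with an adjusted p of 0.0136 for Npnt and 0.017 for the other 4. With the spike-in cluster as a block none of these 5 was called.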

How the results depend on the processing

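The count of 3827 called probe sets lay between 2858 (without arthritic replicate 18) and 3962 (without arthritic replicate 10) when single spleens were left out, and was 3557 after quantile normalization, 3067 without the filter, 2994 with arthritis as a covariate, 3120 with the spike-in block, 2975 without cluster C, 4884 with the Gapdh ratio as a covariate and 3400 by the exact Wilcoxon test. With the score as a continuous variable over all 36 arrays it was 5872, from more samples. The slope in the middle spleens called 0 probe sets, 154 with the spike-in block, and between 0 and 2 when single spleens were left out (1 without arthritic 6, 2 without non-arthritic 16). The interaction called 1452 probe sets, 811 without the filter and 0 with the spike-in block; the cause was not tested. The arthritic share gave p = 0.637 by Fisher's exact test when the sets were chosen on quantile-normalized values, and the spike-in clusters p = 0.0824 with 2 and 0.206 with 4 clusters by exact permutation. Of 122 named genes outside the score and the interaction, 113 kept their call after quantile normalization, 105 with the spike-in block, 115 without arthritic 18 and 122 with log2(value + 64), and 0 changed direction. No paired analysis was possible because the high and low sets share only replicate number 15. Dim probe sets have compressed differences on this scale.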
